A study of Mus musculus with 8 samples.

Results

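The mitochondrial ribosomal proteins described here are 76 genes, 47 named Mrpl for the large subunit of the mitochondrial ribosome and 29 named Mrps for the small subunit, out of 18193 genes that had a probe set of their own. They were taken by symbol alone (Mrpl or Mrps, a number and at most 1 further letter), and each gene was read from the probe set with the highest mean signal over the 8 arrays. All 76 chosen probe sets passed the filter on low signal. Livers came from mouse pups lacking glycerol kinase (knockout) and from age-matched wild-type littermates, all given as male C57BL/6J on day of life 3, with 4 livers a group and 1 Affymetrix array a liver. Glycerol kinase, encoded on the X chromosome, turns glycerol into glycerol 3-phosphate. The labels describe the knockout as a targeted disruption of the gene and give no treatment. Per the design notes, pups were taken on day 3 because they are symptomatic by then, with low blood glucose and acidosis.

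The mitochondrial ribosome translates the small set of mRNAs made from mitochondrial DNA, all of which code for subunits of the respiratory chain and ATP synthase. Its ribosomal RNAs come from the mitochondrial genome, while all of its proteins are encoded in the nucleus, made on cytosolic ribosomes and imported. Some of these proteins have counterparts in bacterial ribosomes and others were gained in mitochondria. The liver depends on this machinery for the oxidative capacity that fatty acid oxidation and gluconeogenesis need after birth.

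Signal intensity was on a linear scale, with a median of 147 to 175 an array, and 42.7% to 46.8% of probe sets reached 200. Replicates 1 and 2 of both groups differed from replicates 3 and 4 in control probe sets (BioB 141 to 167 against 258 to 338, transferrin receptor 3'/5' ratio 6.50 to 6.72 against 4.21 to 4.83). The pyruvate carboxylase 3'/5' ratio, a measure of RNA integrity, was 7.03 and 4.93 on knockout arrays 1 and 2 and 2.06 to 3.46 on the other 6. The transferrin receptor ratio did not set knockout arrays 1 and 2 (6.55 and 6.72) apart from wild-type arrays 1 and 2 (6.50 and 6.53). The array labelled wild type 4 went against its label: Xist, which is transcribed from the inactive X of females, read 10506 there against 196 to 396 elsewhere, and the Y-linked Eif2s3y read 1.30 against 685 to 1164. The level of the targeted gene, which no probe set names in the annotation, was not analysed here, so the knockout labels have no such check. Hepatocyte markers were present in both groups (summed signal of 9 genes 175490 to 222294 in wild type and 194266 to 252545 in knockout).

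The stretches upstream of 8 members are printed here: the 6 genes whose knockout and wild-type signals did not overlap, Mrpl12 as a member with an NRF-1 match, and Mrps11, whose start lies 42 bases from that of Mrpl46 on the opposite strand. Each is the 200 bases before a RefSeq transcript start in GRCm38.p6, 5′ to 3′ on the strand of the gene. Capitals mark matches, on either strand, to the letters searched for NRF-1 (GCGCA and GCGC with any 1 base between them), the ETS family that includes GABP (CCGGAAG) and YY1 (AAGATGG), which are known as regulators of nuclear genes for mitochondrial proteins.
Mrps6: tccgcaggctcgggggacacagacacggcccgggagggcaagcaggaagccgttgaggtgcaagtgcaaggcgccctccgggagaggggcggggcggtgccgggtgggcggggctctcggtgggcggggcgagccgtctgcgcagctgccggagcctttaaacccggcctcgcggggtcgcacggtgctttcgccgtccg
Mrpl45: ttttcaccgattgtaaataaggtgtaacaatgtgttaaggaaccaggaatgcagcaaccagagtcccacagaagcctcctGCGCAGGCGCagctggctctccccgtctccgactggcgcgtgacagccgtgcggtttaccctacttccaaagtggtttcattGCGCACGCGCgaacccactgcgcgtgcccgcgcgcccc
Mrpl34: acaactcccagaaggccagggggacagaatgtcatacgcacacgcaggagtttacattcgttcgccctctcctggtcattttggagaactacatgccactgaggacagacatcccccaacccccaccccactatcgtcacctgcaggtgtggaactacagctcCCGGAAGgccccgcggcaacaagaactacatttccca
Mrpl43: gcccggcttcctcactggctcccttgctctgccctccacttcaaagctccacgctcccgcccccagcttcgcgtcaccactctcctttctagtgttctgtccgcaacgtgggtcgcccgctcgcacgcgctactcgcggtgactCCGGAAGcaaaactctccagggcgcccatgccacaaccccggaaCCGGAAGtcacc
Mrps10: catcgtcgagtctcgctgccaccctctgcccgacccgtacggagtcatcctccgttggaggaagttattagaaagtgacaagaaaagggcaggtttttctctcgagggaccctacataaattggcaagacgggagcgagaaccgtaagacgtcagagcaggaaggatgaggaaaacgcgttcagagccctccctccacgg
Mrpl27: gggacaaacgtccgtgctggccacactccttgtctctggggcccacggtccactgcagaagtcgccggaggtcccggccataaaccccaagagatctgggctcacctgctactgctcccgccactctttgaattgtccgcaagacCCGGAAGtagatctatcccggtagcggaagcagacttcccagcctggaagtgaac
Mrpl12: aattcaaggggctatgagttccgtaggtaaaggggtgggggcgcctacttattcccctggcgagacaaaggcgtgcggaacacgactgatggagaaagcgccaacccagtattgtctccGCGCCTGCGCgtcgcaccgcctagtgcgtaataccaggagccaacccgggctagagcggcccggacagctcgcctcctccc
Mrps11: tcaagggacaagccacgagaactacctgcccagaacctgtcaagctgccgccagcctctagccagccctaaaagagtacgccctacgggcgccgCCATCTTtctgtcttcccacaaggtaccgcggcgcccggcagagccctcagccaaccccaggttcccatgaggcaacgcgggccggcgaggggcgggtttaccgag

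The windows are chr16:92058136-92058335 on the plus strand for Mrps6, chr11:97315516-97315715 plus for Mrpl45, chr8:71464726-71464925 plus for Mrpl34 and chr19:45006443-45006642 minus for Mrpl43. They are chr17:47368997-47369196 plus for Mrps10, chr11:94653591-94653790 plus for Mrpl27, chr11:120484437-120484636 plus for Mrpl12 and chr7:78782931-78783130 plus for Mrps11. The windows of Mrpl45 and Mrps10 lie inside the annotated spans of their genes, and that of Mrpl27 reaches into its gene's, because the start listed in the promoter table is downstream of the first base annotated. Mrpl45 had NRF-1 matches that began 120 and 38 bases before its start, and Mrpl12 had 1 at 81 bases. ETS matches began 37 bases before the start of Mrpl34, 55 before that of Mrpl27, and 56 and 12 before that of Mrpl43. Mrps11 had a YY1 match at 106 bases. Mrps6 and Mrps10 held none of these letters in the printed windows, which says only that the letters are not there.

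Over the whole promoter table (250 bases before to 50 after each start), 67 of the 76 members had an entry, 73 promoters in all, beside 32851 promoters of all genes. ETS letters were in 25 of the 73 (34.2%, against 8.86% of all promoters) and NRF-1 letters in 12 (16.4% against 4.60%). YY1 letters were in 13 (17.8% against 6.34%). The GC box (GGGCGG) was in 39 (53.4% against 35.7%), the E-box (CACGTG) in 7 (9.59% against 7.15%) and the TATA letters (TATAAA) in 5 (6.85% against 13.6%). Both strands were searched, none of these letters contains another, and matches of different motifs may share bases. Members with ETS letters had a median log2 fold change of -0.10 and the others one of -0.06, and those with and without NRF-1 letters had -0.01 and -0.10. These shares and medians are descriptions of letters and carry no test.

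None of the 76 members passed the test between knockout and wild type. Under limma with Benjamini-Hochberg adjustment over all 20395 probe sets tested, 0 members were called at an adjusted p under 0.05, where 0.299% of all probe sets were called. The members' adjusted p in limma ran from 0.144 for Mrps6 to 0.999. At an unadjusted p under 0.05 there were 11 members, 5 higher and 6 lower in knockout, beside 14.4% of all probe sets (7.12% higher and 7.32% lower). The 5 with higher values were Mrps6, Mrpl45, Mrpl34, Mrpl43 and Mrpl38, and the 6 with lower values were Mrps10, Mrpl55, Mrpl41, Mrps28, Mrpl40 and Mrps25. Knockout and wild-type signals did not overlap in 6 members, 4 higher and 2 lower, beside 9.32% of all probe sets (4.47% higher and 4.85% lower).

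The sizes of the differences were small. Log2 fold changes, knockout minus wild type on the log2(signal + 16) scale, ran from -0.55 (Mrpl48) to 0.70 (Mrps6), and 47 of the 76 (61.8%) were within 0.2 of 0, beside 51.8% of all probe sets tested. The median standard error was 0.15, beside 0.19 over all probe sets. These 2 sets are not alike. Each member was read from its brightest probe set (lowest mean signal 379.7), while all probe sets include dimmer ones of the same genes. The 95% interval lay within 1.5-fold in either direction for 48 members and within 2-fold for 73. It reached past 2-fold for Mrps6 (0.27 to 1.13), Mrpl38 (0.05 to 1.08) and Mrpl48 (-1.12 to 0.01). Without the array labelled wild type 4 the log2 fold changes of these genes were 0.65, 0.47 and -0.75. In bulk liver, fewer cells of a type and less RNA per cell cannot be told apart.

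**Figure D1:**
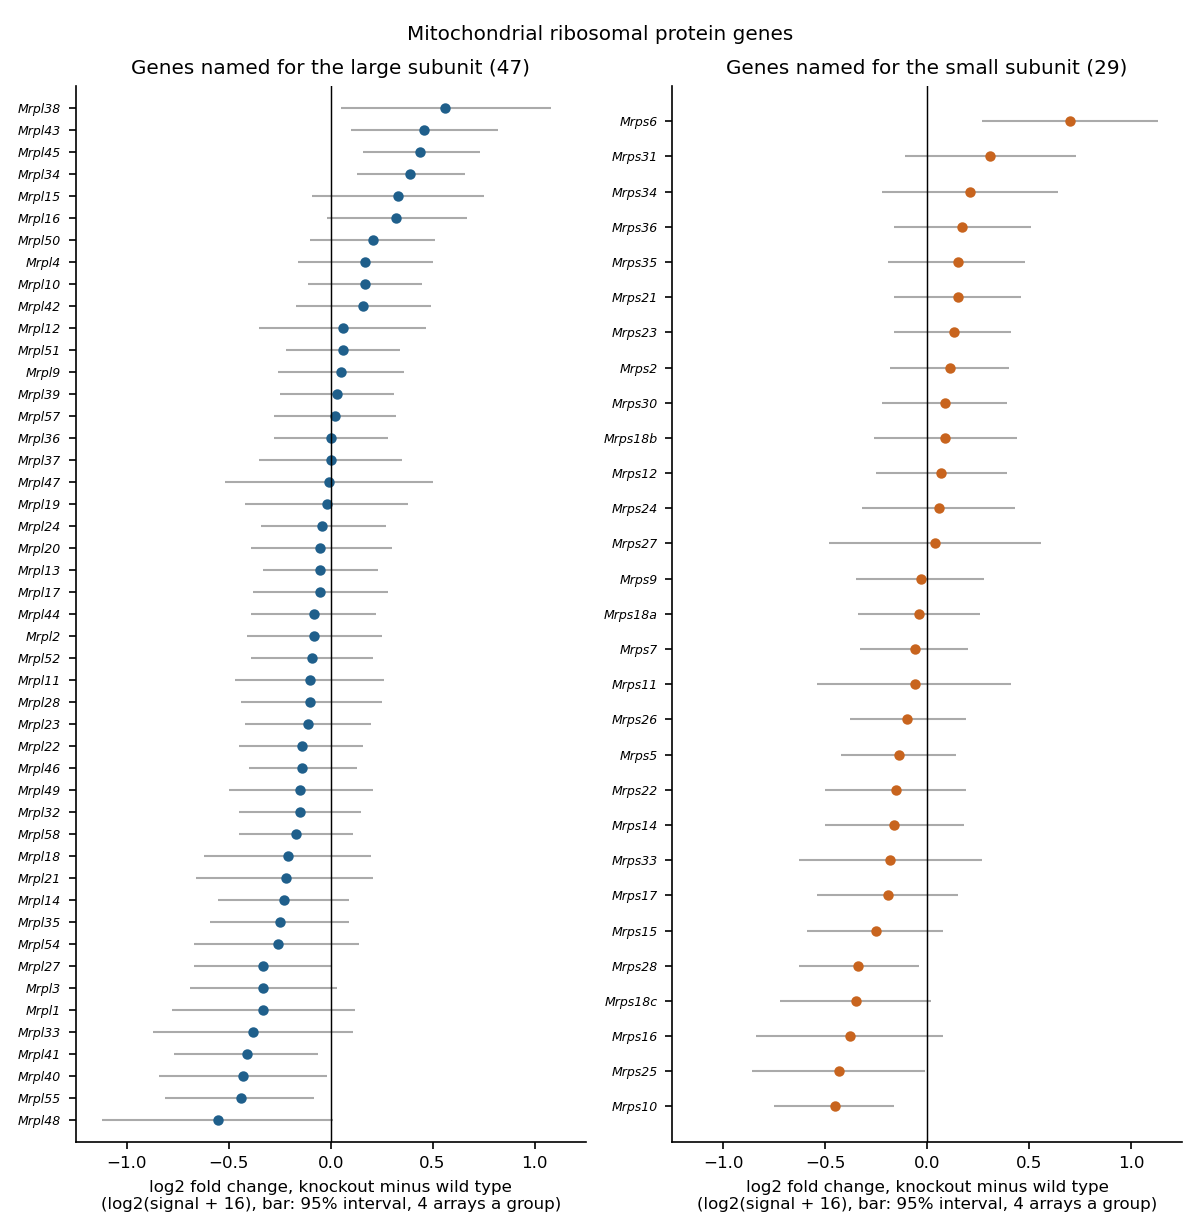
Log2 fold change, knockout minus wild type, of every member with its 95% interval (limma, 4 arrays a group), with large subunit genes on the left and small subunit genes on the right. Most points lie within 0.2 of 0, and the range is -0.55 for Mrpl48 to 0.70 for Mrps6.

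The medians of the subunits lay close to each other and to 0. The median log2 fold change was -0.08 over the 47 large subunit genes, 17 of them above 0, and -0.04 over the 29 small subunit genes, 13 of them above 0. Over all 76 it was -0.06 with 30 (39.5%) above 0, beside -0.03 and 45.8% for all probe sets tested. With the median of all probe sets set equal on every array, the subunit medians were 0.01 (large) and 0.04 (small) and that of all probe sets 0.05, with 41 of 76 members above 0, so the sign of the medians turned with the scaling. With quantile normalization they were -0.09 (large) and -0.02 (small), beside -0.01 for all probe sets, with 30 members above 0. Without the array labelled wild type 4 the medians were -0.10 and -0.06.

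Symbols do not follow structure exactly. Mrps18a and Mrps30 carry small subunit symbols but are built into the large subunit in mammals, and Mrps36 is now known as a component of the 2-oxoglutarate dehydrogenase complex. The first pair had log2 fold changes of -0.04 and 0.09 and Mrps36 0.17. Among large subunit genes the 29 with a bacterial counterpart had a median of -0.08 (8 above 0) and the other 18 one of -0.04 (9 above 0). Among small subunit genes the 16 with a bacterial counterpart had -0.10 (5 above 0) and the other 10 had 0.07 (6 above 0). With each array left out in turn, the median of those 10 ran from -0.04 (without knockout array 2) to 0.16 and was -0.01 without wild-type array 1, so its sign rested on single arrays. That of the 18 ran from -0.09 to 0.01 (without knockout array 3), that of the 29 from -0.14 (without the array labelled wild type 4) to -0.04 (without wild-type array 1), and that of the 16 from -0.16 (without the array labelled wild type 4) to -0.07. With median scaling the 4 medians, in the order of the text, were 0.01, 0.04, -0.02 and 0.15.

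Mrps6 had the largest difference of the 76 genes. It encodes the counterpart of bacterial S6, a protein of the small subunit platform. Its signal was 972, 1012, 896 and 834 on wild-type arrays 1 to 4 and 2139, 1696, 1236 and 1173 on knockout arrays 1 to 4. All knockout arrays were above all wild-type arrays, and knockout arrays 1 and 2 were above the other knockout arrays. The log2 fold change was 0.70 ± 0.19 (SE, n = 4 a group, limma adjusted p = 0.144). It was 0.93 within replicates 1 and 2 and 0.47 within replicates 3 and 4. With the pyruvate carboxylase ratio as a covariate it was 0.52. Leaving out each array in turn gave 0.54 to 0.82, with limma adjusted p from 0.0687 to 0.329. With replicates 1 and 2 against 3 and 4 as a block the limma adjusted p was 0.0550, and with each replicate number as a block it was 0.106. A second tested probe set of Mrps6 gave 0.46 ± 0.20.

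Mrps6 shares its locus with Slc5a3, a sodium-coupled myo-inositol transporter whose annotated start lies 14 bases away. The brightest Slc5a3 probe set read 718, 406, 436 and 364 in wild type and 1538, 1221, 877 and 762 in knockout. Every knockout array was above every wild-type array there too, and the order of the knockout arrays was that of Mrps6. Its log2 fold change was 1.16 ± 0.26 (SE, n = 4 a group, limma adjusted p = 0.0916). Whether the Mrps6 probe set also reads Slc5a3 transcripts was not tested.

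Mrpl45 and Mrpl34 also had higher values on every knockout array. Mrpl45 encodes a mitochondria-specific protein near the exit tunnel that holds the ribosome to the inner membrane. Its signal was 810.2, 867, 992 and 788 in wild type and 1241, 1201, 1140 and 1119 in knockout. The knockout arrays lay close together, all above wild-type array 3, the highest of its group, with a log2 fold change of 0.44 ± 0.13 (SE, n = 4 a group, limma adjusted p = 0.165). Mrpl34, the counterpart of bacterial L34, read 1517, 1514, 1553 and 1446 in wild type and 2228, 1959, 1915 and 1858 in knockout. Wild-type arrays lay close together and knockout array 1 was highest. Its log2 fold change was 0.39 ± 0.12 (SE, n = 4 a group, limma adjusted p = 0.181), while a dimmer tested probe set of the gene gave 0.01 ± 0.25.

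Mrpl43, a mitochondria-specific large subunit protein, read 993, 1378, 1383 and 1298 in wild type and 2112, 1809, 1590 and 1483 in knockout. Wild-type array 1 was the lowest and knockout array 1 the highest. The log2 fold change was 0.46 ± 0.16 (SE, n = 4 a group, limma adjusted p = 0.234), with 0.73 within replicates 1 and 2 and 0.20 within replicates 3 and 4. The gene overlaps Twnk, the mitochondrial DNA helicase on the opposite strand, whose own log2 fold change was -0.02.

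Mrps10, the counterpart of bacterial S10 in the head of the small subunit, was lower on every knockout array. Its signal was 915, 865, 749.5 and 802 in wild type and 544, 674, 574 and 624 in knockout. Knockout array 2, the highest of its group, was below wild-type array 3, the lowest of its group. The log2 fold change was -0.45 ± 0.13 (SE, n = 4 a group, limma adjusted p = 0.165), and it was -0.54 within replicates 1 and 2 and -0.36 within replicates 3 and 4.

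Mrpl27, the counterpart of bacterial L27, a protein that lies close to the peptidyl transferase centre, was named after its values were seen because its groups did not overlap. It read 3252, 2445, 2627 and 2390 in wild type and 1708, 2247, 2251 and 2292 in knockout. Wild-type array 1 was high, knockout array 1 was low, and the other arrays lay near each other. The log2 fold change was -0.33 ± 0.15 (SE, n = 4 a group, limma adjusted p = 0.353).

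**Figure D2:**
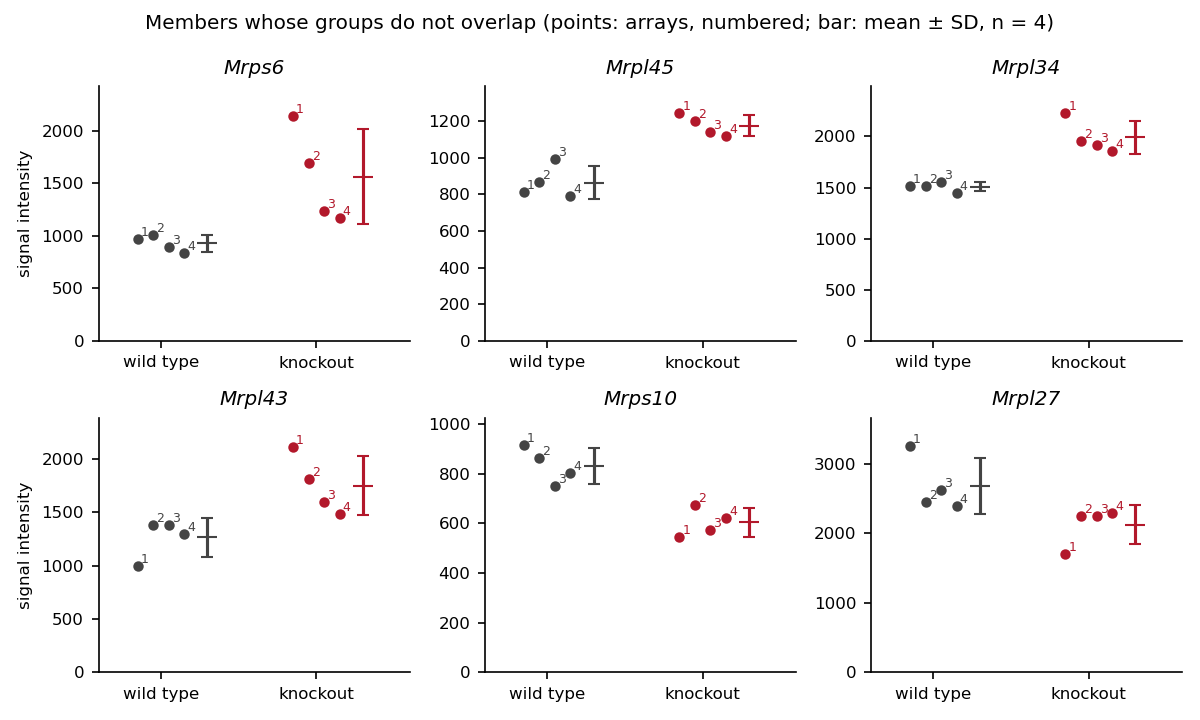
Signal intensity (linear axis from 0) of the 6 members whose groups did not overlap, with 1 numbered point an array and the mean ± SD (n = 4) beside each group. Mrps6 knockout arrays 1 and 2 sit at 2139 and 1696, above 1236 and 1173 on knockout arrays 3 and 4.

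Other large subunit genes with small p had groups that overlapped. Mrpl38, a mitochondria-specific protein, read 769, 893, 828 and 641 in wild type and 1591, 1518, 964 and 766 in knockout. Knockout arrays 1 and 2 were high, and knockout array 4 lay inside the wild-type range. Its log2 fold change of 0.56 ± 0.23 (SE, n = 4 a group, limma adjusted p = 0.309) was 0.89 within replicates 1 and 2 and 0.23 within replicates 3 and 4. Mrpl55 read 532, 664, 719 and 680.3 in wild type and 581, 427, 386 and 506 in knockout. Wild-type array 1 was below knockout array 1, and the log2 fold change was -0.44 ± 0.17 (SE, n = 4 a group, limma adjusted p = 0.260).

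Mrpl41, a mitochondria-specific large subunit protein, read 3356, 2677, 2130 and 2508 in wild type and 1890, 2308, 1849 and 1874 in knockout. Knockout array 2 exceeded wild-type array 3. Its log2 fold change was -0.41 ± 0.16 (SE, n = 4 a group, limma adjusted p = 0.276), and a second tested probe set gave -0.55 ± 0.17. Mrpl40 had mean signals of 857 ± 179.6 in wild type and 632 ± 116 in knockout (SD, n = 4), a log2 fold change of -0.43 ± 0.19. Its difference was -0.76 within replicates 1 and 2 and -0.10 within replicates 3 and 4.

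In the small subunit, Mrps28 read 1928, 1718, 1589 and 1725 in wild type and 1360, 1616, 1280 and 1256 in knockout. Knockout array 2 exceeded wild-type array 3. The log2 fold change was -0.34 ± 0.13 (SE, n = 4 a group, limma adjusted p = 0.291). Mrps25, a mitochondria-specific protein, had 668 ± 164 in wild type and 485 ± 73.6 in knockout (SD, n = 4), a log2 fold change of -0.43 ± 0.19. Without the array labelled wild type 4 its log2 fold change was -0.55. Mrps16, the counterpart of bacterial S16, had 2023 ± 505 and 1540 ± 328, with the same difference in both replicate pairs (-0.39 and -0.37) and an interval of -0.84 to 0.08.

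Mrps18a, Mrps18b and Mrps18c are related genes that descend from the same ancestral S18 gene, and each product takes its own place in the ribosome. Mrps18c read 2371, 1928, 1637 and 1506 in wild type and 1208, 1472, 1516 and 1579 in knockout. Wild-type arrays 1 and 2 were highest and knockout array 1 lowest, and the other arrays overlapped. Its log2 fold change was -0.35 (interval -0.72 to 0.02), made of -0.67 within replicates 1 and 2 and -0.02 within replicates 3 and 4. Mrps18b had 0.09 (interval -0.26 to 0.44) and Mrps18a -0.04 (interval -0.34 to 0.26).

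Members with roles beyond the ribosome's core are given next. Mrpl12, a stalk protein that in human cells also binds the mitochondrial RNA polymerase, read 4028, 3095, 2831 and 3085 in wild type and 4451, 3466, 3359 and 2468 in knockout. The groups overlapped widely, and the log2 fold change was 0.06 (interval -0.35 to 0.47). Mrpl10 and Mrpl11, which form the base of the stalk that recruits translation factors, had 0.17 (interval -0.11 to 0.45) and -0.10 (interval -0.47 to 0.26). Mrps12, the counterpart of bacterial S12 at the decoding centre, had 0.07 (interval -0.25 to 0.39). Mrpl58, a peptidyl-tRNA hydrolase that rescues stalled ribosomes and is also a structural protein, had -0.17 (interval -0.45 to 0.11).

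The members with the brightest probe sets, brightness being a property of the probes as well as of the transcript, had groups that overlapped. Mrpl51 read 4306, 4564, 4303 and 4334 in wild type and 5225, 5097, 3920 and 4117 in knockout. Knockout arrays 1 and 2 were above and knockout arrays 3 and 4 below every wild-type array, and the log2 fold change was 0.06 (interval -0.22 to 0.34). Mrpl15 had 0.33 (interval -0.09 to 0.75), with 0.17, 0.06, 0.15 and 0.05 from its other tested probe sets. Mrpl13 had -0.05 (interval -0.33 to 0.23). In the small subunit Mrps14 had -0.16 (interval -0.50 to 0.18), Mrps17 -0.19 (interval -0.54 to 0.15) and Mrps34 0.21 (interval -0.22 to 0.64). Among the dimmest, Mrpl33 had -0.38 (interval -0.87 to 0.11) and Mrpl1 -0.33 (interval -0.78 to 0.12). A second tested probe set of Mrpl1 gave -0.54 ± 0.17. Mrps27 had 0.04 (interval -0.48 to 0.56) and Mrps11 -0.06 (interval -0.54 to 0.41).

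For 27 of the 76 genes at least 2 probe sets were tested. Their probe sets had 1 sign in 16 genes and both signs in 11, and the median gap between the extremes was 0.16. The 11 were Mrpl3, Mrpl17, Mrpl28, Mrpl39, Mrpl48, Mrpl49, Mrps2, Mrps9, Mrps14, Mrps23 and Mrps24. The widest gap, 0.72, was in Mrpl3, the counterpart of bacterial L3, whose chosen probe set gave -0.33 ± 0.16 and another tested one gave 0.39 ± 0.23. For Mrpl48 the chosen probe set gave -0.55 ± 0.26 and the second tested one 0.01 ± 0.33, so the lowest value among the members was not seen with both. Mrps9 had -0.03 ± 0.14, with 0.34 ± 0.15, 0.09 ± 0.15 and -0.15 ± 0.22 from its other tested probe sets. Of all 120 member probe sets tested, limma called 0.

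Some arrays were often the highest or the lowest for the members. Each array is 1 liver, so array and animal cannot be told apart. Wild-type array 1 held the highest signal for 30 of the 76 (39.5%, against 22.0% of all probe sets tested) and knockout array 4 for 0 (against 9.92%). The array labelled wild type 4 held the lowest for 14 (18.4% against 9.01%) and knockout array 1 for 19 of the 76 (against 25.3% of all probe sets). Relative to the wild-type mean of each gene, the large subunit median was 0.17, 0.01, -0.03 and -0.07 on wild-type arrays 1 to 4 and -0.07, 0.03, -0.10 and -0.17 on knockout arrays 1 to 4. The small subunit median was 0.07, 0.07, -0.01 and -0.04 and then -0.05, 0.05, -0.05 and -0.09. The spread among the wild-type arrays was thus larger than the difference between the groups. In both subunits the knockout median was highest on array 2 and lowest on array 4.

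**Figure D3:**
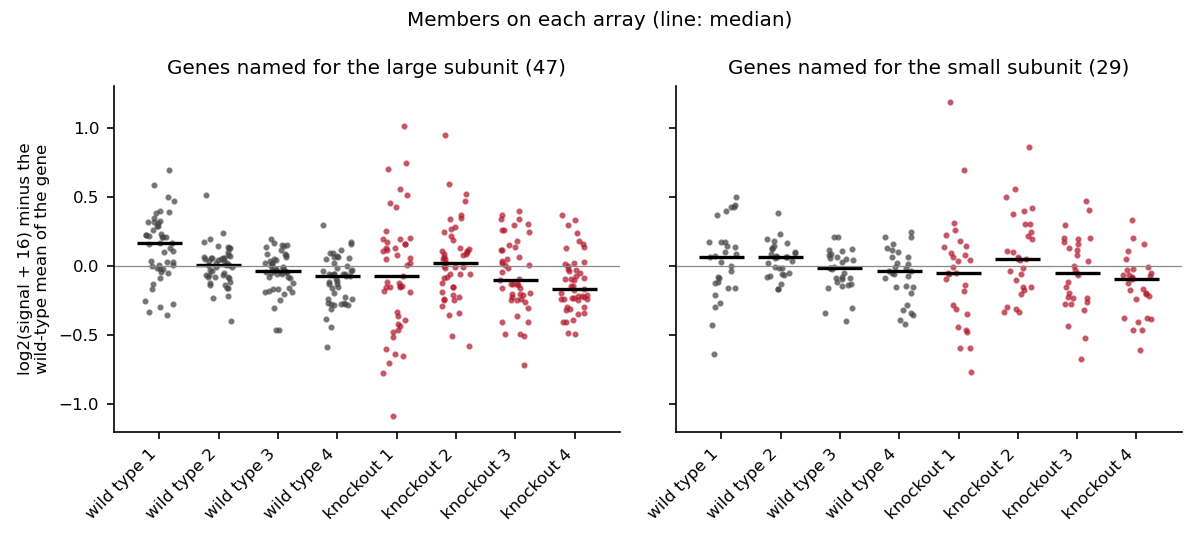
Each member's log2(signal + 16) on each array minus its wild-type mean, with 1 point a gene and a line at the median, for the large (left) and small (right) subunit. The large subunit medians run from 0.17 on wild-type array 1 to -0.17 on knockout array 4.

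The knockout difference was also taken separately in replicates 1 and 2 and in replicates 3 and 4. The sign was the same in both for 49 of 76 members (64.5%, against 58.3% of all probe sets). Across members the Pearson correlation of the differences was 0.40 (0.32 across all probe sets), a description over genes that share arrays and are not independent. The differences spread more in replicates 1 and 2 (SD 0.38) than in replicates 3 and 4 (SD 0.20). The pyruvate carboxylase ratio was high on knockout arrays 1 and 2, and its part in this spread was not tested. With that ratio as a covariate the median over all members was -0.11, with 25 above 0, beside -0.01 for all probe sets tested. The subunit medians were -0.07 (large) and -0.07 (small) in replicates 1 and 2 and -0.07 and -0.05 in replicates 3 and 4.

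A test of the difference between the replicate pairs had an unadjusted p under 0.05 for 6 members, beside 9.92% of all probe sets, and limma called 0 members after adjustment, with a smallest adjusted p of 0.490. The 6 were Mrps18c, Mrps11, Mrps31, Mrpl48, Mrpl38 and Mrps35. Mrpl48, with the lowest fold change of the members, had -1.03 in replicates 1 and 2 and -0.07 in replicates 3 and 4. Mrps11 had -0.39 and 0.26, and Mrps31 had 0.62 and -0.01.

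**Figure D4:**
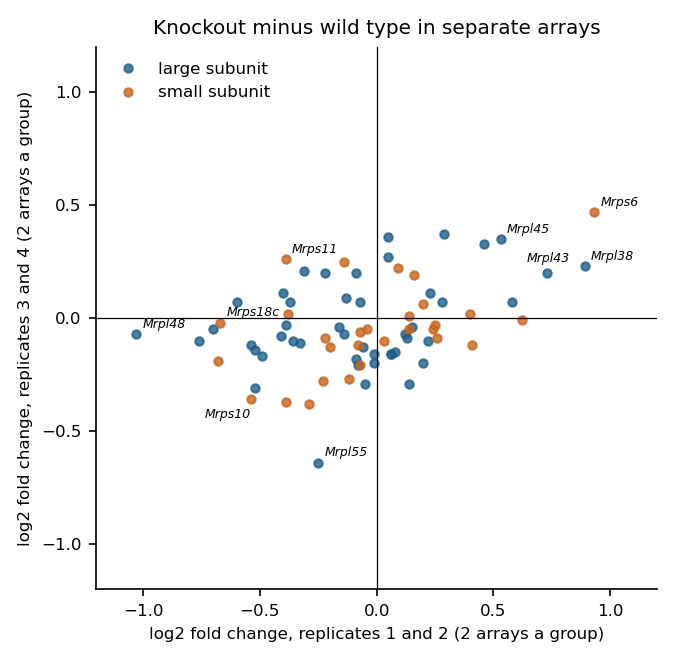
Log2 fold change of each member in replicates 1 and 2 (horizontal) against replicates 3 and 4 (vertical), 2 arrays a group in each, coloured by subunit. Mrps6 is high on both axes (0.93 and 0.47), while Mrpl48 is low on the horizontal axis alone (-1.03 and -0.07).

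Many members sit head to head with another gene. Among the 67 in the promoter table, 22 had a start on the opposite strand within 500 bases upstream (32.8%, against 10.9% of all genes there). Mrpl46 and Mrps11, which are members of different subunits, start 42 bases apart and had log2 fold changes of -0.14 and -0.06. Mrpl27 starts 48 bases from Eme1, a subunit of a DNA endonuclease (-0.33 and -0.56). Mrps12 starts 147 bases from Sars2, the mitochondrial seryl-tRNA synthetase (0.07 and -0.08). Mrpl40 starts 113 bases from the histone chaperone gene Hira (-0.43 and 0.01). Of the members, 19 overlap another protein-coding gene, and whether their probe sets read it was not tested.

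Other genes of mitochondrial translation also had no calls. Of 45 tested translation and ribosome assembly factors, limma called 0, 7 were higher and 1 lower at an unadjusted p under 0.05, and the median log2 fold change was 0.05 with 27 above 0. It was -0.01 with the pyruvate carboxylase ratio as a covariate, and 0.01 without wild-type array 3, the array labelled wild type 4 or knockout array 2. The smallest p among them were those of Tfb1m, an rRNA dimethyltransferase (-0.58 ± 0.16), Pdf, the peptide deformylase (0.44 ± 0.13), and Letm1, an inner membrane protein (0.64 ± 0.20). The ribosomal subunits that carry other symbols had -0.11 for Ptcd3, 0.12 for Chchd1, 0.08 for Gadd45gip1 and 0.06 for Dap3, a GTP-binding protein of the small subunit. Limma called 0 of these 4, and 0 had an unadjusted p under 0.05. Of 16 mitochondrial aminoacyl-tRNA synthetases, limma called 0, 1 was higher and 3 lower at an unadjusted p under 0.05, and the median was -0.13 with 5 above 0. It was 0.01 without knockout array 1, with 8 above 0; the array's own median against the wild-type mean was -0.47, and those of knockout arrays 2 to 4 were -0.06, -0.02 and -0.06. Fars2 had 0.45 ± 0.15, Ears2 -0.43 ± 0.16 and Lars2 -0.84 ± 0.31.

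A list of 23 genes covered mitochondrial transcription and its nuclear regulators. It also held mitochondrial DNA replication genes such as Polg and Twnk, and the protease genes Lonp1 and Clpp. The median of the 23 was -0.01 with 11 above 0. With each array left out, it ran from -0.04 to 0.08 (without knockout array 4). Limma called 0, and 3 were higher and 0 lower at an unadjusted p under 0.05. Ppargc1a, the coactivator that drives mitochondrial gene programmes, read 478, 263, 291 and 901 in wild type and 1868, 1222, 1168 and 702 in knockout. The groups overlapped through knockout array 4 and the array labelled wild type 4, with a log2 fold change of 1.42 ± 0.38 (SE, n = 4 a group, limma adjusted p = 0.134). Its partner receptor Esrra had 0.80 ± 0.27 and Polrmt, the mitochondrial RNA polymerase, 0.49 ± 0.17.

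The respiratory chain, which includes the products of mitochondrial translation but was read here through its nuclear genes, had mostly positive values. Of 70 tested subunits, 68 were above 0 with a median of 0.24, limma called 0, and 24 were higher and 0 lower at an unadjusted p under 0.05. Uqcrfs1, the Rieske iron-sulfur protein of complex III, had 0.49 ± 0.10. The ATP synthase subunits Atp5c1 and Atp5o had 0.52 ± 0.12 and 0.49 ± 0.13. The median of this list was 0.50, 0.26, 0.21 and 0.02 above the wild-type mean on knockout arrays 1 to 4. The pyruvate carboxylase ratio on those arrays was 7.03, 4.93, 2.07 and 2.06, and a link to the medians was not tested. With the ratio as a covariate the median of the list was 0.17 with 63 above 0. The median was also 0.17 without knockout array 1, the lowest with an array left out, and 0.32 without knockout array 4, the highest. It was 0.14 with quantile normalization (61 above 0) and 0.33 with median scaling (69 above 0). Of 47 tested cytosolic ribosomal proteins, 38 were above 0 with a median of 0.06. That sign turned with the scaling: the median was -0.03 with quantile normalization (17 above 0) and 0.14 with median scaling (42 above 0), and it was 0.01 without knockout array 1 or with the covariate (26 above 0). Limma called 0, and 0 had an unadjusted p under 0.05. Rpl37 had 0.30 ± 0.16, Rps25 -0.41 ± 0.22 and Rpl14 0.36 ± 0.20. The difference between these lists and the mitochondrial ribosomal proteins was not tested.

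**Figure D5:**
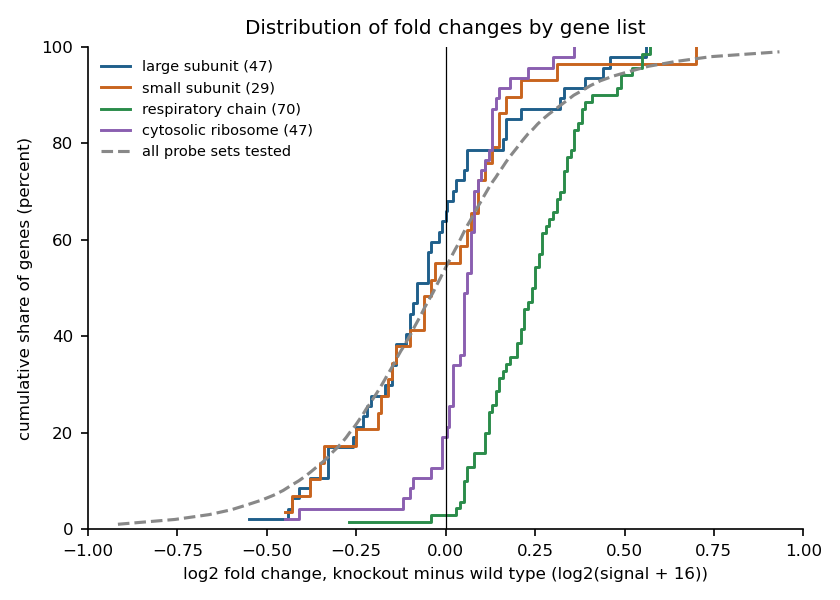
Cumulative share of genes (percent) by log2 fold change, knockout minus wild type, for both mitochondrial subunits, the respiratory chain, the cytosolic ribosomal proteins and all probe sets tested (dashed). The large and small mitochondrial subunits have medians of -0.08 and -0.04, near the -0.03 of the dashed line. Their upper quartiles are 0.05 and 0.11 against 0.16. Above 0 are 36.2% and 44.8% of their genes, against 45.8% of all probe sets. The dashed line counts probe sets and the other curves count genes. The respiratory chain curve lies to the right with a median of 0.24.

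Markers of the cells in liver were read beside these values. All 9 hepatocyte markers were above 0 with a median of 0.08, which was 0.32 in replicates 1 and 2 and -0.14 in replicates 3 and 4. Without knockout array 1 it was 0.003, and 5 to 9 of the markers were above 0 as each array was left out. Of 5 erythroid markers tested, 0 were above 0, with a median of -0.10. That median ran from -0.18 (without knockout array 4) to -0.004 (without knockout array 1), with 0 to 2 markers above 0. It was -0.31 in replicates 1 and 2 and 0.18 in replicates 3 and 4. With the pyruvate carboxylase ratio as a covariate it was 0.02, with 4 above 0. The summed erythroid signal ran from 41717 to 50981 in wild type and from 36607 to 52408 in knockout. Medians were 0.09 for 9 macrophage, -0.22 for 8 granulocyte, -0.11 for 6 endothelial and -0.31 for 6 stellate and fibroblast markers. They were -0.06 for 2 cholangiocyte markers, with Krt7, Sox9 and Cftr under 200 on every array, and -0.43 for 3 B lymphoid markers. With each array left out, the macrophage median ran from -0.08 (without knockout array 1) to 0.22 (without the array labelled wild type 4), and the cholangiocyte median from -0.46 to 0.34. The granulocyte (-0.30 to -0.14), endothelial (-0.19 to -0.01), stellate and fibroblast (-0.44 to -0.17) and B lymphoid (-0.73 to -0.21) medians stayed below 0. Between the replicate pairs the endothelial median differed in sign, with 0.14 in replicates 1 and 2 and -0.26 in replicates 3 and 4. So did the macrophage median, with 0.39 in replicates 1 and 2 and -0.11 in replicates 3 and 4. Limma called 0 markers in any list. At an unadjusted p under 0.05, 2 hepatocyte markers and 1 macrophage marker were higher, and 2 granulocyte, 1 endothelial and 2 stellate and fibroblast markers were lower. Their part in the members' values was not tested.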

How the data were processed

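Liver RNA of 4 wild-type and 4 knockout pups was measured, with each array's group taken from its title. The authors deposited linear signal intensity, made with GCOS 1.2 at its defaults and globally scaled to 500, per the labels. This scaling was kept, and detection calls were not used here. The arrays' number limits the precision.

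Of 45101 probe sets, 64 controls were left out. Names came from the platform annotation, joined to a RefSeq gene table by Entrez identifier (34945 with 1 gene, 932 with several, 9160 with none), and 4 probe sets that pair a member with another gene were not used. All 76 members matched by identifier. Testing took the 20395 probe sets that reached 200 on 4 or more of the 8 arrays, as log2(signal + 16). The two-sided test was limma's moderated one (version 3.58.1, R 4.3.3), with the prior variance following mean intensity, adjusted by Benjamini-Hochberg and called under 0.05. Tested on simulated data, where 200 probe sets were changed at each size, it found 21.0% of those changed by 1.5-fold, 62.5% at 2-fold and 95.0% at 4-fold. The simulated noise was independent between probe sets and arrays, without the differences between replicate pairs seen here, and all changes were upward. The changed probe sets were drawn from all those tested, so the rates are not those of the members. Summaries used pandas 2.3.3 in Python 3.11.15, and plots used matplotlib 3.10.9.

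The members, gene lists and alternatives were chosen with earlier results of these data known, so lists are described by counts and medians, with no set test. The text names, per subunit, the 6 members of smallest p, the 4 of highest and 2 of lowest mean signal, members whose tested probe sets differ in sign, the Mrps18 genes, 5 members with known further roles and, per list, 3 genes by smallest p. Mrpl27, Mrpl40, Mrpl46, Mrps31, Mrps35 and genes beside members were named after their values were seen. Promoter sequences are from RefSeq (GRCm38.p6). Alternatives were other pseudocounts (1 and 64), signal minimums (100, 400 and none), scalings, limma settings, a threshold of 0.10 and probe set choices. Further ones were subunit placement, blocks, the pyruvate carboxylase 3'/5' ratio as a covariate and each array left out. The values of lists and classes under other scalings, the covariate and each array left out were added after seeing the data.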

Additional observations from a re-analysis of the deposited data

Results flagged for a closer look

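Among 78 groups of 4 arrays examined over the named members, 4 held 1 array far from the other 3, and chance gives about 1 in 20 groups, so the count is near that of chance. Knockout array 2 was high for Mrpl41 (2308, the others 1849 to 1890) and for Mrps14 (2813, the others 2160 to 2239). Wild-type array 2 was high for Mrpl51 (4564, the others 4303 to 4334). Wild-type array 1 was low for Mrps34 (1264, the others 2221 to 2343). No cause was tested.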

How the results depend on the processing

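The count of members called was 0 under every alternative run, with the 0.10 threshold applied to the main fit alone. The large subunit median of -0.08 ranged from -0.12 (pyruvate carboxylase ratio as a covariate) to 0.01 (median scaling), and from -0.10 to -0.04 with each array left out. The small subunit median of -0.04 ranged from -0.08 to 0.03 with each array left out, the highest without wild-type array 2, and was 0.04 with median scaling; the cause was not tested. Large minus small ranged from -0.10 (without wild-type array 2) to 0.02 (without knockout array 4). Members above 0 numbered 25 to 41. Those at an unadjusted p under 0.05 numbered 8 to 16 of 76, where 9.10% to 18.6% of all probe sets passed. The 16 came in the setting with 18.6%, and median scaling gave 8 with 14.6%. The fit without the array labelled wild type 4 gave 13 with 12.9%. Over all probe sets, the 61 calls became 2 without wild-type array 2 or 3 or knockout array 2 or 3, 6 without the array labelled wild type 4, 22 without knockout array 1 and 334 without knockout array 4. They were 184 with replicates 1 and 2 against 3 and 4 as a block, 22 and 111 at signal minimums of 100 and 400, 21 with no filter, 18 with no intensity trend and 304 at the 0.10 threshold. The labels give no shared litter or batch behind the replicate numbers. Same-numbered arrays had residual correlations of 0.22, 0.40, 0.34 and 0.05, so not every pair passed 0.1, and 5 of 8 arrays correlated best with their own number. The arrays were therefore not treated as paired. With the replicate block, 0 members and 56 probe sets were called, and the subunit medians were -0.08 and -0.04. In that fit 12 members had an unadjusted p under 0.05, beside 17.4% of all probe sets.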
